A study of Drosophila montana with 9 samples.

Results

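The genes described here as circadian clock transcription genes, on a candidate gene microarray of *Drosophila montana*, were *period* (*per*), *timeless* (*tim*), *Clock* (*Clk*) and *CrebB17A*. The study lists *per*, *tim* and *Clk* under circadian rhythm and *CrebB17A* under diapause. Their probes were found by gene name, in the probe names and in the gene list of the study, and no measured value was used to choose them. They were 4 of the 110 genes and 9 of the 208 experimental probes on the array (207 different sequences), with 4 probes for *per*, 2 for *tim*, 2 for *Clk* and 1 for *CrebB17A*. Females of isofemale line O3F66, descended from a single wild female, made up 3 groups. Diapausing females were held for 14 days at 16°C with 16 h of daily light, reproducing females for 14 days at 16°C with 24 h of daily light, and young females were taken at the age of 1 day from 19°C and 24 h of daily light. Each group had 3 arrays, and each array held Cy3-labelled cRNA from the whole bodies of 13 pooled females. Diapausing females were frozen 2 to 3 h after lights-on, so the arrays hold a single time of the daily cycle, while the other females had no dark phase. Diapausing and reproducing females differed in the light regime. Young females differed from both in age and temperature, and from diapausing females in the light regime as well. The effects of age, temperature and, against diapausing females, light cannot be told apart.

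In *D. melanogaster*, the CLOCK protein, encoded by *Clk*, pairs with CYCLE and turns on transcription of *per* and *tim*. The PER and TIM proteins accumulate, enter the nucleus and hold back CLOCK and CYCLE, so that the loop runs about once a day. Light leads to the breakdown of TIM. *CrebB17A* encodes a transcription factor of the CREB family, which answers to cyclic AMP and calcium signalling and takes part in memory and rhythmic behaviour. The clock loop runs in a small set of brain neurons, in photoreceptors and in several peripheral tissues, all of which are diluted in RNA of the whole body. In such samples, fewer cells that express a gene and less RNA of that gene per cell cannot be told apart.

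Each probe was an oligonucleotide of 60 bases designed on *D. montana* exon sequence, and the sequences are given because the probes of 1 gene did not read alike. *CrebB17A* and *Clk* were read by the probes below, which share no run of 15 or more bases with another probe on the array.
CrebB17A_1F1R: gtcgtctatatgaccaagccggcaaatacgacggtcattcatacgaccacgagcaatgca
Clk_1F: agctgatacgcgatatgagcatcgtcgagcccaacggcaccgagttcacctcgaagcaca
Clk_2R: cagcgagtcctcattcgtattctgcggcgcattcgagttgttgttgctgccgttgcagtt

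The probes of *tim* are nearly the same sequence, shifted by a few bases, and capitals mark the 55 bases that they share, so they are no independent readings of the gene.
tim_1F1R-1: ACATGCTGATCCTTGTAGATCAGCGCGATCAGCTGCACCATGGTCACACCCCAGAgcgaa
tim_1F1R-2: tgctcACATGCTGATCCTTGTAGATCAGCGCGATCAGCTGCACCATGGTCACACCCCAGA

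Of the probes of *per*, Per_2 and Per_4 share no such run with another probe, whereas Per_3FR and Per_3FR_K are opposite strands of the same region. Capitals mark the 34 bases of Per_3FR_K that are the reverse complement of the capitals in Per_3FR.
Per_3FR: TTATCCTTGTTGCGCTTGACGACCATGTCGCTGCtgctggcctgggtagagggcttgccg
Per_3FR_K: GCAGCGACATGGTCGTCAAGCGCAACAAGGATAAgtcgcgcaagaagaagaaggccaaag
Per_2: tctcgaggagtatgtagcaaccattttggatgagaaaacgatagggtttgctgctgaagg
Per_4: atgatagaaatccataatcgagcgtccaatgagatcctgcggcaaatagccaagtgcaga

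Labelled cRNA has a single orientation, so at most 1 of Per_3FR and Per_3FR_K can pair with labelled *per* cRNA over these bases. The labelled cRNA is complementary to the mRNA, so a probe reads its gene only where it carries the coding strand. Which strand each probe carries is not given in the sources used here. Every one of the 9 probes has at least 1 reading frame free of stop codons on both strands, so open frames did not settle it. An untested reading of the codons, with no reference protein at hand, placed Per_3FR_K, Clk_1F and *CrebB17A* on the coding strand and Per_3FR, Per_2, Per_4, the *tim* probes and Clk_2R on the opposite one. The values of these last probes are therefore given as signals of the probe, and whether they follow the mRNA of *per*, *tim* or *Clk* was not determined. The GC content of the 9 probes lay between 45.0% (Per_2 and Per_4) and 60.0% (Per_3FR), within the range of 31.7% to 65.0% of all 208 probes (median 45.0%). *per*, *tim* and *Clk* are listed in the RefSeq annotation of *D. montana* (assembly ASM3504440v1), and the table lists *CrebB*, the name now used in *D. melanogaster* for *CrebB17A*, though the probe was not matched to that entry by sequence. The arrays name no genome build, and no coordinates are given.

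Signal well above background, as marked by the scanner software for all spots of a probe, was found on all 9 arrays for 2 of the 9 clock gene probes, on some arrays for 3 and on no array for 4. Among all 208 probes, 109 (52.4%) were well above background on all 9 arrays and 41 (19.7%) on none, and between 123 and 156 probes were on a given array. *CrebB17A* and probe Per_3FR were the ones with such signal on every array. Clk_1F was well above background on 7 arrays, Clk_2R on 4 and Per_3FR_K on 1. Neither *tim* probe and neither of the other *per* probes (Per_2 and Per_4) was on any array.

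**Figure D1:**
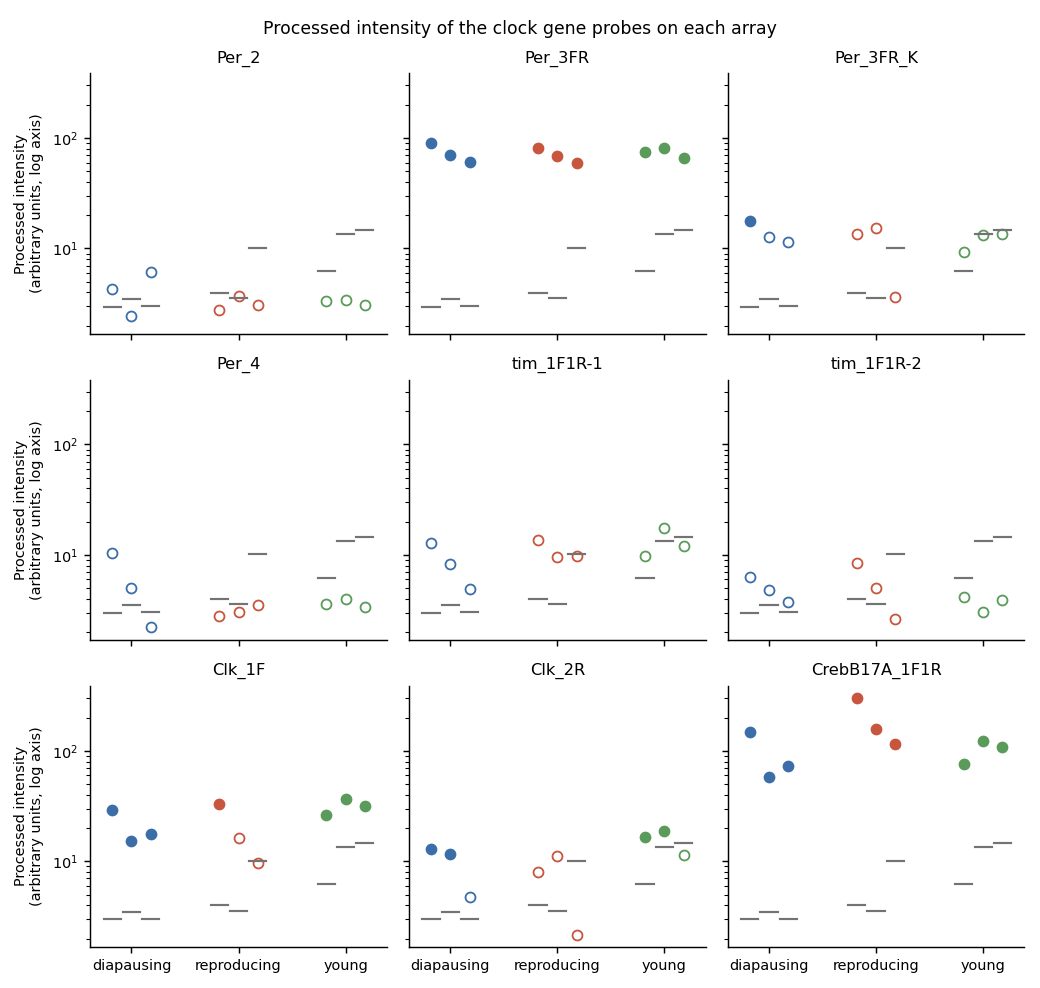
Processed intensity of each clock gene probe (y axis, arbitrary units, log axis) in diapausing, reproducing and young females, 1 point per array. Filled points are well above background on all spots of the probe and open points are not, and each grey line is the 95th percentile of the 77 negative control spots of that array. CrebB17A_1F1R and Per_3FR have filled points on all 9 arrays, and the *tim* probes, Per_2 and Per_4 have none.

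The array of reproducing replicate 40 stood apart from the rest. The SD of its negative control spots was 20.4 intensity units, against 2.20 to 12.7 on the other arrays, and its raw signals correlated with those of reproducing replicate 23 at 0.823, the lowest value within any group. The photoreceptor genes *ninaE* and *Rh3*, which define the eye, were detected by 4 of 4 probes, so RNA of the head was present in the whole-body samples. Its level differed: summed after the normalization given below, on the linear scale, these genes ranged from 2514 to 68961 in reproducing females (median 62513). They ranged from 30238 to 113150 in diapausing females and from 61363 to 87379 in young females. The 9 arrays lay on 3 slides, with every group present once per slide.

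*CrebB17A* had the widest range of the members between arrays (1.63 on the log2 scale after normalization). Its processed intensity was 147, 58.5 and 73.5 in diapausing females, 301, 159 and 115 in reproducing females and 76.3, 122 and 107 in young females. Reproducing females had the highest single value, and the ranges of all groups overlapped. After variance stabilizing normalization (VSN), which fits an offset and a scale for each array and gives values that behave like log2 at high intensity, *CrebB17A* averaged 7.30 ± 0.56 in diapausing females, 7.83 ± 0.69 in reproducing females and 7.63 ± 0.31 in young females (SD, n = 3 each). Diapausing females were thus 0.54 lower than reproducing females on the log2 scale (fold change 0.689, SE 0.40, adjusted p = 0.645 by limma with Benjamini-Hochberg adjustment over all 208 probes). Against young females the difference of diapausing females was -0.33 (SE 0.40, adjusted p = 0.876 by limma), and that of reproducing females was 0.21 (SE 0.40, adjusted p = 0.808 by limma). None of these differences exceeded the spread between arrays. The value for diapausing against reproducing females was -1.03 without reproducing replicate 40 and -0.17 without reproducing replicate 22, and reproducing against young females had the opposite sign (-0.16) without reproducing replicate 22. Within the slides, diapausing minus reproducing was -0.58, -0.94 and -0.09, all of the same sign, whereas reproducing minus young was 1.24, -0.01 and -0.61.

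The comparison of *CrebB17A* between reproducing and young females depended on the processing. VSN used the mean intensity without background subtraction, and the percentile scaling used the processed intensity. The 2 thus differ in the handling of background as well as in the scale between arrays. When the processed intensity of each array was divided by its own 75th percentile over the experimental probes, *CrebB17A* was at -2.42, -2.63 and -2.81 in diapausing females, -1.87, -2.44 and -1.92 in reproducing females and -3.42, -2.97 and -3.07 in young females, on the log2 scale relative to that percentile. On this scale all reproducing and all diapausing values lay above all young values, and diapausing and reproducing values overlapped only through diapausing replicate 27 and reproducing replicate 23. Here *CrebB17A* of reproducing females was 2.11 times that of young females (1.08 on the log2 scale, SE 0.27, adjusted p = 0.0229 by limma), and this difference passed the test. With this scaling 39 of the 208 probes were called in the same comparison (18.8%), 29 of them higher. It was called with 5 of the 9 arrays left out in turn, and with the other 4 (reproducing replicate 22 and each young array) the adjusted p was above 0.05. The range of the adjusted p over those 9 fits was 0.0224 to 0.0737, and the log2 fold change stayed between 0.95 and 1.26. The median log2 fold change of all probes in this comparison was itself -0.20 after VSN and 0.29 after scaling to the 75th percentile. Relative to that median, *CrebB17A* was 0.41 higher in reproducing than in young females after VSN and 0.79 higher after the percentile scaling. With the same percentile after normexp background correction, reproducing minus young was 0.55 (SE 0.30, limma adjusted p = 0.279) and was not called. Relative to the median of all probes it was then 0.39. In the deposited table of processed intensity, also scaled to the 75th percentile, reproducing minus young was 0.97 (limma adjusted p = 0.0444). Its fold change of 1.96 was under the minimum of 2. Without reproducing replicate 40 in that table it was 0.87 (limma adjusted p = 0.0846). Scaling to the housekeeping probes gave 0.97 (limma adjusted p = 0.136). VSN on the spike-ins alone gave 0.18 (limma adjusted p = 0.903).

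**Figure D2:**
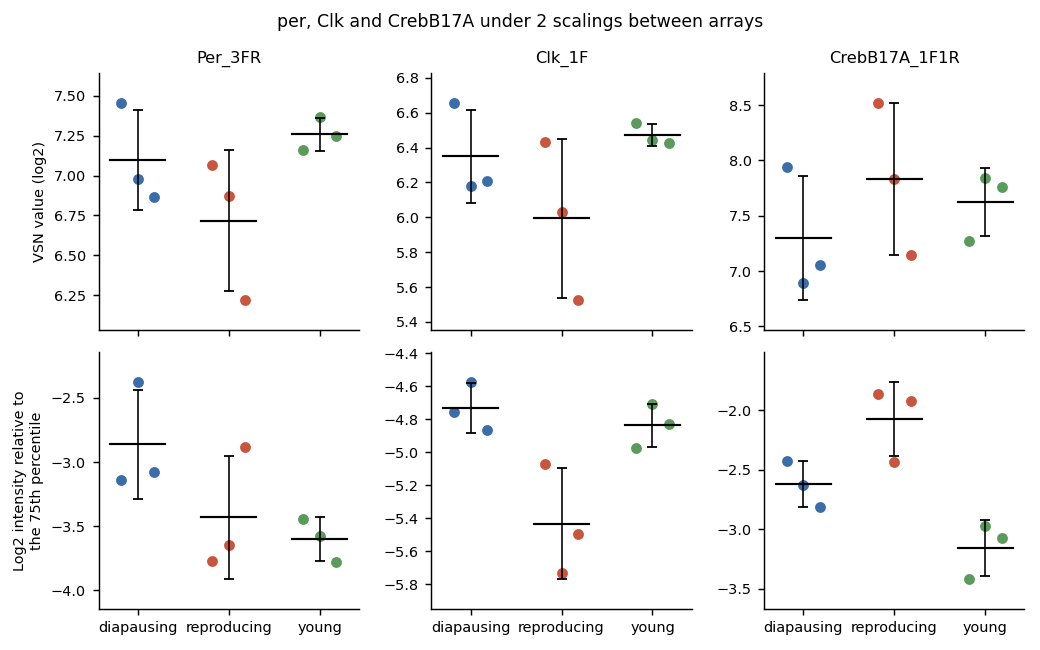
Values of Per_3FR, Clk_1F and CrebB17A_1F1R in diapausing, reproducing and young females after VSN (upper row, log2) and as log2 intensity relative to the 75th percentile of the array (lower row). Points are arrays, horizontal bars are means and error bars are SDs (n = 3 each); CrebB17A_1F1R of reproducing females averages 7.83 against 7.63 in young females after VSN, and -2.07 against -3.15 after the percentile scaling.

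Of the *per* probes, Per_3FR was the one with signal well above background on every array, and whether that signal comes from *per* was not determined. Its processed intensity was 89.7, 70.1 and 61.2 in diapausing females, 80.7, 68.5 and 59.0 in reproducing females and 74.96, 80.5 and 65.6 in young females. The ranges of the 3 groups covered each other almost entirely before any scaling between arrays. After VSN, Per_3FR averaged 7.10 ± 0.31 in diapausing females, 6.72 ± 0.44 in reproducing females and 7.26 ± 0.10 in young females (SD, n = 3 each). Diapausing females differed from reproducing females by 0.38 on the log2 scale (SE 0.26, adjusted p = 0.622 by limma) and from young females by -0.16 (SE 0.26, adjusted p = 0.920). With 1 array left out, the difference between diapausing and reproducing females lay between 0.12 (without reproducing replicate 40) and 0.68 (without diapausing replicate 43), and within the slides it was 0.39, 0.11 and 0.65. On all 3 reproducing arrays Per_3FR was below every young array, with a log2 difference of -0.54 (SE 0.26, adjusted p = 0.322). The values did not overlap, but the test was not passed. Reproducing replicate 40 had the lowest Per_3FR value, 6.22, and without it the log2 fold change was -0.31 (limma adjusted p = 0.594). With the percentile scaling the sign of this difference turned (0.17, limma adjusted p = 0.747), and likewise that of diapausing against young females (0.74, limma adjusted p = 0.193).

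The opposite strand of that *per* region, Per_3FR_K, was spotted as a pair of copies and had far fewer readable arrays. Its mean processed intensity was 17.8, 12.7 and 11.4 in diapausing females, 13.6, 15.4 and 3.63 in reproducing females and 9.34, 13.2 and 13.6 in young females. Both spots were well above background only on diapausing replicate 27, and 1 of 2 spots was on the other diapausing arrays and on reproducing replicates 22 and 23. No fold is given for Per_3FR_K, since 1 array in all had both spots well above background. Per_2 and Per_4 stayed between 2.24 and 10.5 intensity units on all arrays, and they are given no fold because no group had an array on which they were well above background.

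*Clk* was close to background, and its probes differed in how often they were measured. Clk_1F had a processed intensity of 29.2, 15.3 and 17.7 in diapausing females, 32.7, 16.1 and 9.65 in reproducing females and 26.0, 36.7 and 31.7 in young females. It was well above background on all 3 diapausing arrays, on 1 of 3 reproducing arrays (replicate 22) and on all 3 young arrays. After VSN it averaged 6.35 ± 0.27 in diapausing females, 5.99 ± 0.45 in reproducing females and 6.47 ± 0.06 in young females (SD, n = 3 each). The log2 difference was 0.36 for diapausing minus reproducing females (SE 0.25, adjusted p = 0.622 by limma) and -0.12 for diapausing minus young females (SE 0.25, adjusted p = 0.920). Diapausing minus reproducing was between 0.16 (without reproducing replicate 40) and 0.63 (without diapausing replicate 43) with 1 array left out, and 0.23, 0.15 and 0.69 within the slides. For reproducing minus young females it was -0.48 (SE 0.25, adjusted p = 0.355), and -0.28 without reproducing replicate 40. Neither of the differences with reproducing females changed sign under any processing tried, and none of the 3 comparisons of Clk_1F passed the test.

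Clk_2R had a processed intensity of 12.9, 11.6 and 4.77 in diapausing females, 8.06, 11.2 and 2.16 in reproducing females and 16.5, 18.8 and 11.5 in young females. It was well above background on 2 diapausing arrays, on no reproducing array and on 2 young arrays. Diapausing minus reproducing was 0.19 on the log2 scale after VSN (SE 0.20, limma adjusted p = 0.754). The values of these groups overlapped, and within the slides the difference was 0.31, -0.04 and 0.31. With each reproducing array set to at least the lowest level measured above background there, diapausing over reproducing females was 1.06, and the floored values were not tested. Reproducing minus young was -0.43 (SE 0.20, limma adjusted p = 0.311), and young over reproducing females was 1.26 with the same floor. After VSN all reproducing values of Clk_2R (5.71 to 6.22) lay below all young values (6.42 to 6.56). Diapausing minus young was -0.24 (SE 0.20, limma adjusted p = 0.821). The Pearson correlation of the *Clk* probes over the 9 arrays, which share a normalization, was 0.87. Clk_1F correlated with tim_1F1R-1 at 0.97 and with Per_3FR at 0.96, so the 0.87 is not particular to probes of 1 gene.

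*tim* could not be quantified. tim_1F1R-1 lay between 4.92 and 17.4 intensity units and tim_1F1R-2 between 2.64 and 8.38, with neither well above background on any array. These signals were above the 95th percentile of the negative control spots on 7 arrays for tim_1F1R-1 and on 5 arrays for tim_1F1R-2. The signal of these probes therefore allows no statement on the direction of *tim* in any comparison, and no fold is given. After VSN tim_1F1R-2 was lower on all 3 reproducing arrays (6.03 to 6.14) than on any young array (6.16 to 6.25), at signals below background in both groups.

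The test called none of the 9 clock gene probes in any comparison, and none of the 9 had an unadjusted p under 0.05 in limma. For a call, the fold change had to exceed 2 with an adjusted p below 0.05. In diapausing against reproducing females 3 of the 208 probes were called (1.44%), 2 higher and 1 lower, and 17 had an unadjusted p under 0.05. In diapausing against young females 6 of 208 were called (2.88%), 3 higher and 3 lower, and in reproducing against young females 11 of 208 (5.29%), 2 higher and 9 lower. At these rates of calls, 0 of 9 clock gene probes is near the background. The median log2 fold change of the 9 clock gene probes was 0.19, against 0.05 over all 208 probes, in diapausing against reproducing females, -0.07 against -0.20 in diapausing against young females and -0.17 against -0.20 in reproducing against young females. Values of the groups did not overlap for 0 of the 9 clock gene probes in diapausing against reproducing females, where 9.76% of all probes with a full set of values did not overlap. They did not overlap for 0 of 9 in diapausing against young females (15.1% of all) and for 3 of 9 in reproducing against young females (35.7% of all). Those were Per_3FR, Clk_2R and tim_1F1R-2.

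**Figure D3:**
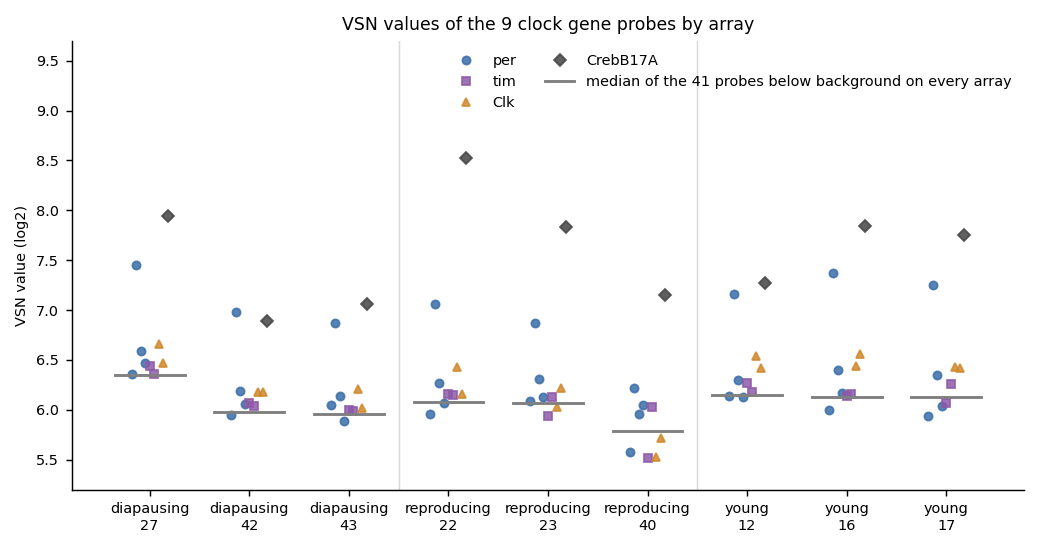
VSN values (y axis, log2) of the 9 clock gene probes on each array, grouped as diapausing, reproducing and young females, with a symbol per gene. Grey lines are the median of the 41 probes that stayed below the mark for background on all arrays; this median is 6.35 on diapausing replicate 27 and 5.79 on reproducing replicate 40, and most *per*, *tim* and *Clk* points lie close to it.

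The level of the dim probes differed between arrays. The median VSN value of the 41 probes that were on no array was 6.35, 5.98 and 5.96 on the diapausing arrays, 6.08, 6.07 and 5.79 on the reproducing arrays and 6.15, 6.13 and 6.13 on the young arrays. The lowest VSN value of Per_2, tim_1F1R-1, Clk_1F and Clk_2R was on reproducing replicate 40 in each case, whereas Per_4 and tim_1F1R-2 were lowest on diapausing replicate 43 (5.89 and 5.98) and lay at 6.05 and 6.03 on reproducing replicate 40. The part of this level in the differences of *Clk* and *per* was not tested.

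Likeness of the members to the other genes was described by the Pearson correlation of gene means over the 9 arrays, with no test. The genes most like *per* were *tim* (r = 0.97), *disco* (0.95) and *Fmr1* (0.95), and those most like *tim* were *per* (0.97), *Fmr1* (0.97) and *inaC* (0.95). *Clk* was most like *Gapdh1* (0.97), *syt* (0.97) and *inaC* (0.95). *CrebB17A* was most like *CG4049* (0.98), *eIF-4a* (0.97) and *lark* (0.96), all 3 of which were well above background on 9 arrays. The points share array, RNA sample and normalization, and the median correlation of *per* with the other genes was already 0.75. That median was 0.76 for *tim*, 0.73 for *Clk* and 0.52 for *CrebB17A*. No probe of *tim*, *disco* or *syt* was well above background on an array, so their likeness is that of background signals.

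Among the other clock genes, *vri*, a target of CLOCK whose product holds back *Clk* in *D. melanogaster*, had 3 probes. vri_1F had a processed intensity of 12.4, 8.77 and 10.2 in diapausing females, 13.3, 40.7 and 3.17 in reproducing females and 3.09, 6.40 and 9.81 in young females. It was well above background on diapausing replicates 27 and 43 and reproducing replicates 22 and 23, and the other *vri* probes were on no array. After VSN, vri_1F differed by -0.07 between diapausing and reproducing females on the log2 scale (SE 0.25, adjusted p = 0.932 by limma). The 5 genes *dco*, *CkIIalfa*, *sgg*, *slmb* and *tws*, which act on PER and TIM proteins through phosphorylation, dephosphorylation or breakdown, had 11 probes, 2 of them (for *CkIIalfa*) of the same sequence, all well above background on at least 1 array. None of the 11 was called in any comparison. Their fitted values were lower on 8 of 11 in diapausing against reproducing females (median log2 fold change -0.36, against 0.05 over all probes) and on 10 of 11 in diapausing against young females (median -0.27, against -0.20). The paper, at the same thresholds, reported *dco*, *CkIIalfa*, *slmb* and *tws* as lower in diapausing than in reproducing females. Here the *slmb* probes were at -1.70 and -1.55 in that comparison (limma adjusted p = 0.154 and 0.201). The lack of a call therefore does not show that these genes were unchanged. Besides *per*, *tim* and *Clk*, the 23 genes that the study places under circadian rhythm had 46 probes. Of these, 0 were called in diapausing against reproducing females (median log2 fold change 0.01) and 0 in diapausing against young females (median -0.12). In reproducing against young females 2 of the 46 were called, both lower (median -0.12).

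Gene lists drawn up for tissues were set beside the members. Over all 208 probes, fitted values were lower for 155 in reproducing against young females (median -0.20) and for 90 in diapausing against reproducing females (median 0.05). The 21 probes of 13 photoreceptor genes had fitted values lower on 21 of 21 in reproducing against young females (median log2 fold change -0.87), and none was called. Their summed VSN level, taken back to the linear scale, ranged from 17843 to 171210 in reproducing females and from 132800 to 195737 in young females, and the lowest value was from reproducing replicate 40. In diapausing against reproducing females 19 of the 21 were higher (median 0.41), the direction also fitted for Per_3FR and Clk_1F. The summed photoreceptor level had the opposite order of medians, at 96131 in diapausing and 150635 in reproducing females. Its range was 83086 to 245333 in diapausing females and overlapped that of reproducing females. The 20 probes of 9 genes with maternal transcripts in the ovary were lower on 16 of 20 in diapausing against reproducing females (median -0.67), with a summed level of 7120 to 28251 in diapausing females and 16695 to 45514 in reproducing females, the direction also fitted for *CrebB17A*. These 9 genes include *dco*, *CkIIalfa*, *sgg*, *slmb* and *tws* with their 11 probes given above, so the lists are not independent. Whether these 9 genes are specific to the ovary was not tested, so their level is no measure of its share. In reproducing against young females 12 of the 20 were higher (median 0.43), with a summed level of 16695 to 45514 in reproducing females and 18177 to 22709 in young females, again the direction of *CrebB17A*. The 16 probes of 9 neuronal genes had a median of 0.04 in diapausing against reproducing females and were lower on 15 of 16 in reproducing against young females, with 2 called and a median of -0.24, close to that of all probes. The part of these tissues in the values of *per*, *Clk* and *CrebB17A* was not tested.

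**Figure D4:**
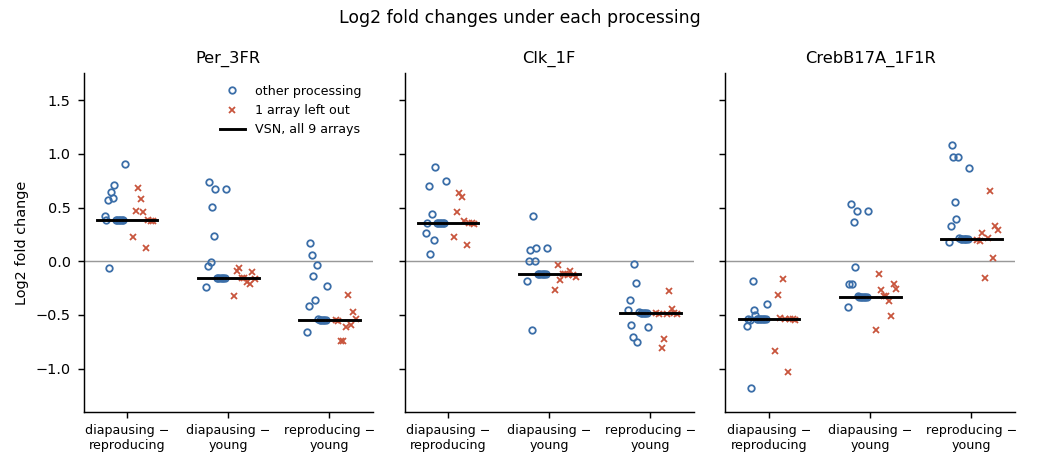
Log2 fold change (y axis) of Per_3FR, Clk_1F and CrebB17A_1F1R in diapausing minus reproducing, diapausing minus young and reproducing minus young females. Black bars are VSN with all 9 arrays, blue circles other processing and red crosses VSN with 1 array left out; CrebB17A_1F1R is below 0 in every diapausing minus reproducing value (-1.18 to -0.17) and Clk_1F above 0 (0.07 to 0.88).

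In diapausing against reproducing females, the fitted differences of *CrebB17A* and of Per_3FR and Clk_1F had opposite signs. Clk_1F was well above background on 1 of the 3 reproducing arrays, so its difference rests in part on values at background. *CrebB17A* stayed lower in diapausing females under every processing and with every array left out, between -1.18 and -0.17 on the log2 scale. None of these fits called it (limma adjusted p between 0.0761 and 0.854). Clk_1F stayed higher, between 0.07 and 0.88, and Per_3FR was between -0.06 and 0.90, with the negative value only when the arrays were scaled to the housekeeping probes. Per_3FR had an adjusted p of 0.0351 when the normexp-corrected values were quantile normalized, at a fold change of 1.51, under the minimum of 2. Its adjusted p over the other processing of this comparison went up to 0.902.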

How the data were processed

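The authors hybridized labelled cRNA of 9 whole-body samples to custom single-colour arrays and deposited scanner output from Feature Extraction (9.5.1.1 in the file headers, 9.5.3.1 in the methods). Its intensity values are the mean pixel intensity, the local background and a processed intensity with background subtracted, none scaled between arrays. A table of processed intensity with 197 probes was also deposited and served as an alternative only; its scaling is not stated, its column medians differ between arrays (82 to 356), and its column for reproducing replicate 40 follows the scanner values less closely (r = 0.916) than the other 8 (0.998 or more). The group abbreviations of the labels were read as diapausing, reproducing and young.

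Spots marked as outliers (4 experimental and 159 spike-in over 9 arrays) were dropped, and copies of a probe were averaged. VSN was written anew in R 4.3.3 and fitted on the mean intensity of the 208 probes and 200 spike-in spots (trimming quantile 0.5, 5 slices, 7 rounds). All 208 probes were tested with limma 3.58.1 over the 9 arrays, with Benjamini-Hochberg adjustment, and called where the fold change exceeded 2 and the adjusted p was below 0.05. The procedure was tested on simulated data, with recovery required only of probes brighter than any clock gene probe here, so this does not cover their intensities. A probe was well above background where Feature Extraction marked all its spots so. Where that held on no array of a group, each of its arrays was set to at least the lowest VSN value of a probe above background there. The fold given is that of the group means after this floor, and the p-values are from the values without it. Labels call the arrays of a group replicates of 13 females each. With 3 arrays per group, their number limits the precision.

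All probes of the 4 genes are named, together with *vri* and the 3 genes most like each member. Members, gene lists and tests were chosen with earlier results of these data known. The alternatives were VSN with a trimming quantile of 0.9 or on the spike-ins only, scaling to the 75th percentile or to the housekeeping probes, normexp (offset 50) with either the 75th percentile or quantile normalization, genes in place of probes, the 197 listed probes only, probes above background on fewer than 3 arrays removed, a block for slide, outlier spots not removed, fits of only the groups compared, the deposited table, no minimum for the fold change and each array left out. The deposited table without reproducing replicate 40 and the percentile scaling with each array left out were chosen after seeing the data.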

Additional observations from a re-analysis of the deposited data

How the results depend on the processing

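No clock gene probe was called after VSN with any 1 of the 9 arrays left out (0 in all 3 comparisons). The exceptions came from other processing. *CrebB17A* (1 probe) was called in reproducing against young females with the 75th percentile of the processed intensity. In the deposited table, scaled to the 75th percentile, with or without reproducing replicate 40, Per_4 (1 probe) was called in diapausing against reproducing females. There Per_4 and tim_1F1R-2 (2 probes) were called in diapausing against young females, and no array measured either of them above background.

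The count over all probes in diapausing against reproducing females (3) was 5 with a trimming quantile of 0.9, 11 with the 75th percentile, 14 with housekeeping scaling, 12 and 13 with normexp and the 75th percentile or quantile normalization, 13 in the deposited table (12 without reproducing replicate 40), 1 with genes in place of probes, and 2 to 13 with 1 array left out, the 13 without diapausing replicate 27. In diapausing against young females (6) it was 17 with the 75th percentile, 10 with housekeeping scaling, 3 with normexp and quantile normalization, 21 in the deposited table (26 without that replicate), 2 with genes, 2 with slide as a block and 1 to 9 with 1 array left out. In reproducing against young females (11) it was 39 with the 75th percentile, 29 and 23 with normexp, 31 in the deposited table (28), 6 with slide as a block, 6 with only the groups compared and 4 to 15 with 1 array left out. The split moved too: with housekeeping scaling 2 were higher and 12 lower in diapausing against reproducing females, and with the 75th percentile 16 were higher and 1 lower in diapausing against young females and 29 higher and 10 lower in reproducing against young females.

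Signs turned as follows. In diapausing against young females, the log2 fold changes with the 75th percentile, normexp and the 75th percentile, normexp and quantile normalization, and the deposited table (with or without that replicate) were 0.74, 0.50, 0.23 and 0.67 for Per_3FR and 0.10, 0.42, 0.0014 and 0.13 for Clk_1F. For *CrebB17A* they were 0.53 with the 75th percentile, 0.37 with normexp and the 75th percentile and 0.47 in the table, and for Clk_2R 0.27 and 0.12 with normexp and the 75th percentile and in the table. Per_3FR was at -0.064 with housekeeping scaling in diapausing against reproducing females, and at 0.17 with the 75th percentile and 0.0575 with housekeeping scaling in reproducing against young females. *CrebB17A* was between -0.16 (without reproducing replicate 22) and 0.65 (without reproducing replicate 40) in reproducing against young females with 1 array left out. The scalings differ in where they put the median probe, which in diapausing against young females was at -0.20 after VSN, 0.44 with the 75th percentile and -0.31 with housekeeping scaling. No paired analysis was possible because the replicate numbers of the groups are all different, except by slide: with slide as a block, 0 clock gene probes were called in any comparison. Signal over background limits these readings as well, since 4 of the 9 clock gene probes were never well above it.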

Other observations

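Ratios of 2 probes on the same array do not depend on any scaling between arrays. The processed intensity of *CrebB17A* over that of Per_3FR was 1.64, 0.835 and 1.201 in diapausing females, 3.73, 2.32 and 1.95 in reproducing females and 1.02, 1.52 and 1.64 in young females. The 3 reproducing values lay above all values of the other groups. The difference in the log2 ratio was -1.12 for diapausing minus reproducing females and 0.91 for reproducing minus young females (exact permutation test, two-sided, p = 0.1 each, the smallest that 3 against 3 arrays can give). Diapausing minus young females was -0.21 (exact permutation test, p = 0.7). Such a separation was common: over Per_3FR, 34 of 105 other probes measured on all arrays (32.4%) did not overlap between diapausing and reproducing females, and 41 of 107 (38.3%) did not between reproducing and young females. Over Clk_1F, *CrebB17A* was at 5.04, 3.84 and 4.16 in diapausing females, 9.21, 9.85 and 11.9 in reproducing females and 2.93, 3.33 and 3.38 in young females, with no overlap between any of the groups (44.3%, 42.5% and 57.4% of the probes measured on all arrays did not overlap, for diapausing against reproducing, diapausing against young and reproducing against young females). Of the 6 comparisons of ratios made, 5 had an exact permutation p = 0.1, which became 0.12 after Benjamini-Hochberg adjustment. Clk_1F was not well above background on reproducing replicates 23 and 40, so 9.85 and 11.9 are ratios to a signal at background. These ratios were chosen after the values had been seen. With 3 against 3 arrays the permutation test could give no p below 0.1, so it cannot decide on them.

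The reverse complement pair of *per* was not the only one on the array. In a search over all 208 probes, 6 pairs shared 15 or more bases as reverse complements, and in all 6 of them 1 partner carried the suffix K in its name. None of the 6 K probes was among the 197 probes of the deposited table. For *per*, Per_3FR was well above background on 9 arrays and Per_3FR_K on 1.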
